A study of Mus musculus with 20 samples.

Results

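The 76 genes described here encode proteins of the mitochondrial ribosome, or carry its naming. They are the rows of the expression table whose mouse symbol is Mrpl or Mrps followed by a number and at most 1 letter, and they were 76 of 50686 genes in the count table. Of them 47 have an Mrpl and 29 an Mrps symbol. RNA of the mouse macrophage line RAW264.7, an established line that RANKL can turn into osteoclasts, was sequenced from 20 libraries in 10 groups of 2. The untreated group was sampled at 0 h. RANKL (50 ng/ml), the BET inhibitor I-BET (500 nM) and both agents together were each sampled after 4, 14 and 24 h. The labels do not say which I-BET compound was used, and all groups come from this 1 line. There is no untreated group at 4, 14 or 24 h, so in every contrast with untreated cells the agent and the hours in culture cannot be told apart. Nothing says that the 2 libraries of a group came from separate cultures, so p-values measure the spread between these libraries, which may be technical.

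Mitochondria carry their own ribosome, which translates the few messenger RNAs of the mitochondrial genome into core subunits of the respiratory chain and ATP synthase. Its ribosomal RNAs are made in the organelle, whereas its proteins are encoded in the nucleus, translated in the cytosol and imported. Some of these proteins descend from bacterial ribosomal proteins and others exist only in mitochondria. Osteoclasts are rich in mitochondria. BET proteins are readers of acetylated histones that help to switch on transcription, and I-BET compounds displace them.

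Library totals ran from 19051780 to 62313792 counts. All macrophage markers measured had counts, at levels that differed widely. Csf1r lay between 230 and 499 RPKM (reads scaled by exon length and library total). Low in the list were Itgam, between 1.58 and 9.19, and Fcgr3, between 0.493 and 7.14. Markers of T cells, B cells, epithelium, fibroblasts, endothelium and liver were at or near 0, with 0.0367 RPKM as their highest value. The 5 most abundant genes took 11.4% of the counts in untreated library 2 and 3.54 to 6.09% in the other 19. In all 10 groups the median member was higher in library 2 than in library 1, by 0.0738 to 0.308 on the log2 scale. Deviations from the group means over all genes correlated between same-numbered libraries of every pair of groups (r of 0.221 to 0.596 over 45 pairs, across genes), so counts are also given with the replicate number as a block.

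The members took 0.340 to 0.481% of all counts. Their levels per length differed widely. The highest mean RPKM over the 20 libraries were 96.8 for Mrps6 (the counterpart of bacterial S6), 72.2 for Mrps21 and 68.3 for Mrpl12, a protein of the stalk that recruits translation factors. The lowest above 0 were 4.65 for Mrps35 and 6.04 for Mrpl23. Mrpl53 had 0 counts in every library. Its exons overlap another gene on each strand, and the counting rule is not given in the sources used here. The other 75 members passed the filter on low counts. By structure 49 members belong to the large subunit, Mrps30 and Mrps18a among them despite their symbols, and 26 to the small subunit. Mrps36 is now assigned to the 2-oxoglutarate dehydrogenase complex. The members lie on 17 chromosomes.

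Between groups most members moved little. From the lowest to the highest group mean, Mrps6 spanned 2.10 on the log2 scale, Mrpl52 1.19, Mrpl45 0.98 and Mrps18b 0.94, and the member with the narrowest span, Mrps11, 0.22. For 31 members the highest group mean was that of RANKL at 24 h and for 24 that of RANKL at 14 h. For 30 members the lowest was I-BET at 4 h. The matching shares of all tested genes are not given, so these counts cannot be read as particular to the members. The summed level of the members, in counts scaled to library size with TMM factors (CPM), was 3538 and 3932 in the untreated libraries, 4090 and 4899 with RANKL at 14 h, and 4330 and 4970 at 24 h. With both agents it was 3611 and 4201 at 14 h and 3761 and 4255 at 24 h. Library 1 of each RANKL group at these hours was above both untreated libraries, and library 1 of the combined groups was between them.

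**Figure D1:**
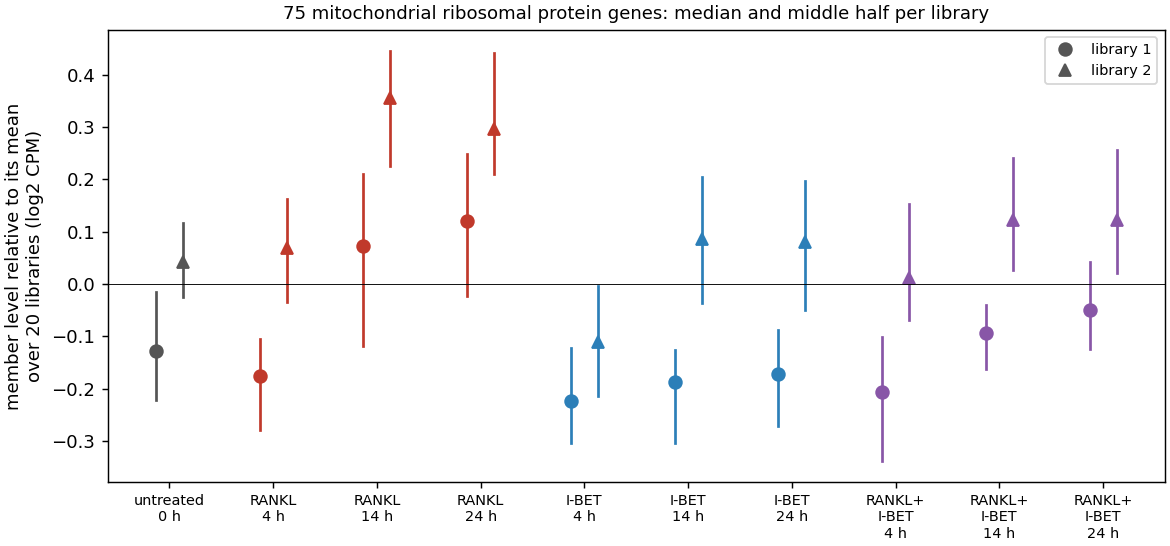
Level of the 75 tested members in each library, as the log2 CPM of a member minus its mean over 20 libraries. Symbols are the median member (circle library 1, triangle library 2) and lines the middle 50 percent of members; library 2 is above library 1 in all 10 groups, and the RANKL libraries at 14 and 24 h are the highest of their number.

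Promoter sequence was available for 67 members, in 73 RefSeq windows (GRCm38.p6) from 250 bases before to 50 bases after a start site. The letters of 4 motifs were searched on both strands: an E-box (CACGTG, bound by MYC with MAX), an NRF1 core (GCATGCGC), an ETS site (CCGGAAG, the kind that GABP binds) and a YY1 site (AAGATGGC). The ETS letters occurred in 32.9% of member windows, against 8.86% of 32851 windows of all genes and 17.4% of the windows of tested genes. YY1 letters occurred in 16.4%, against 2.75% and 4.47%. NRF1 letters occurred in 9.59%, against 2.71% and 5.22%, and the E-box in 9.59%, against 7.15% and 9.84%. Median GC content was 58.7% in member windows, 52.7% in all and 60.3% in those of tested genes. The windows of 3 members are shown because these genes were called in most of the 9 contrasts of RANKL or I-BET with their direct controls. They were chosen after their values were seen: Mrps18b and Mrpl52, which were lower with I-BET in RANKL-treated cells, and Mrpl10, which was higher. Each run is the 250 bases before the start site, 5′ to 3′ on the strand of the gene, with motif letters in capitals. They lie at chr17:35916441-35916690 on the minus strand, chr14:54426659-54426908 on the plus strand and chr11:97041332-97041581 on the plus strand, respectively.
Mrps18b: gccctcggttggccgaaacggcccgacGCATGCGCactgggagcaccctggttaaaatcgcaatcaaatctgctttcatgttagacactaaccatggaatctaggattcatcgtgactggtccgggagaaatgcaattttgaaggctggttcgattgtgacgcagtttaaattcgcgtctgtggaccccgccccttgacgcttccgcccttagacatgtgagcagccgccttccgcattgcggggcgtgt
Mrpl52: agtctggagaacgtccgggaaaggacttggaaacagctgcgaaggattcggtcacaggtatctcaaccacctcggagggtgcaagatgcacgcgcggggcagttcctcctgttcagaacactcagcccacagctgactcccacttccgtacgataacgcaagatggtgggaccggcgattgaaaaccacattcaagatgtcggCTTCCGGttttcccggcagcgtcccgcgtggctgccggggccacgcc
Mrpl10: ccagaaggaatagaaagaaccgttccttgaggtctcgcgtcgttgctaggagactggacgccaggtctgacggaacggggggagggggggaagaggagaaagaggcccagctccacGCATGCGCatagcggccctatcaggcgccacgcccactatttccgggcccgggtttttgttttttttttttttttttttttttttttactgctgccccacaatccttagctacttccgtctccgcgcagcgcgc
The Mrps18b window holds the NRF1 letters at -223 and, past the start site, at 29, followed by ETS letters at 44. Mrpl52 holds ETS letters at -47 and 3, and Mrpl10 NRF1 letters at -134, counting the first base of each match from the start site. No match was found in the windows of Mrpl45, Mrpl50 and Mrps6. Such matches describe letters, not binding.

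**Figure D2:**
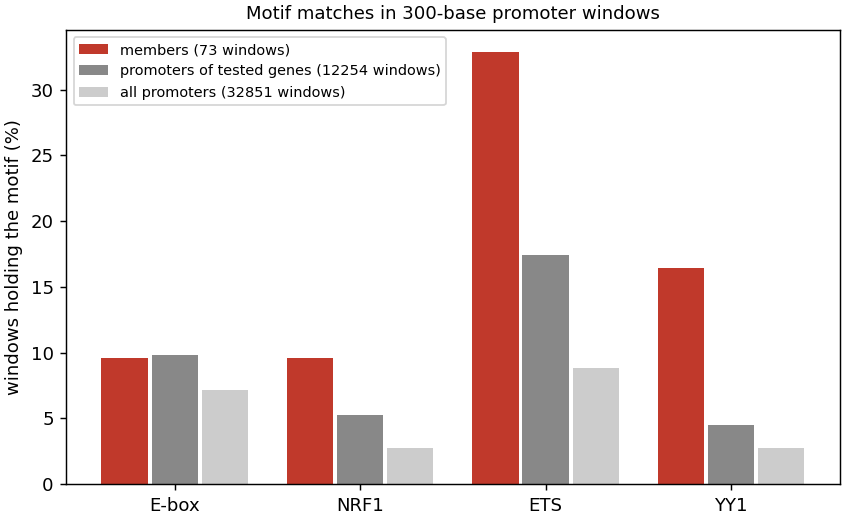
Share of promoter windows, in percent, that hold the letters of each motif on either strand, for the members, for genes tested for expression and for all genes. The ETS bar of the members stands at 32.9% and that of tested genes at 17.4%, while the E-box bars stand at 9.59% and 9.84%.

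RANKL starts osteoclast formation, and the first comparison set its libraries against untreated cells. After 14 and 24 h the members called were all higher, in both subunits and among bacterial-type and mitochondria-specific proteins. At 14 h edgeR's quasi-likelihood test with Benjamini-Hochberg adjustment over 16042 genes called 8 of 75 members higher and 0 lower (adjusted p under 0.05). Of all tested genes 8.31% were called higher and 10.1% lower, so the members' 10.7% called higher was near the background. At 24 h it called 12 higher and 0 lower, which is 16% against 8.04% of all genes higher and 10.9% lower. DESeq2 called 11 and 16 members higher and 0 lower. The shares of all genes given here are those of edgeR, and that of DESeq2 is not given. The median member was 0.24 higher at 14 h and 0.27 at 24 h, against 0.03 and 0.05 for all tested genes (log2). At 4 h the median was -0.02, and 1 member was called higher and 0 lower (2.08% and 1.83% of all genes), or 2 and 3 with the replicate block (6.72% and 7.77%).

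With the replicate number as a block, 43 members were called higher at 14 h and 47 at 24 h, and 0 lower, against 19.1% and 18.7% of all genes called higher. In the same blocked fit without untreated library 2, the library whose 5 top genes took 11.4% of counts, 19 and 23 were called higher, against 11.6% and 10.7% of all genes. Both RANKL libraries were above both untreated libraries for 41 members at 14 h and for 51 at 24 h, where 26.9% and 27.1% of all tested genes were. They were below for 1 and 0, against 25.9% and 26.5%. Leaving out 1 library at a time took away 6 of the 8 calls at 14 h and 7 of the 12 at 24 h.

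Mrpl52, a mitochondria-specific large-subunit protein, was at 40.2 and 37.8 CPM in the untreated libraries. It was at 52.1 and 64.2 CPM after 4 h with RANKL, 67.6 and 77.7 after 14 h, and 66.6 and 65.1 after 24 h. Every RANKL library was above both untreated ones. The log2 changes were 0.58 (SE 0.12, adjusted p = 0.0154), 0.90 (SE 0.12, adjusted p = 0.000163) and 0.76 (SE 0.12, adjusted p = 0.000525). The 4 h call was lost without untreated library 2 (adjusted p = 0.1998).

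Mrpl45, a mitochondria-specific protein near the exit of the peptide tunnel, was at 74.0 and 65.2 CPM untreated, 97.1 and 95.9 at 14 h, and 105 and 108 at 24 h. These groups did not overlap. Mrpl45 rose by 0.47 at 14 h and 0.61 at 24 h on the log2 scale (SE 0.09, adjusted p = 0.00220 and 0.000270), and the 14 h call was lost without untreated library 2 (adjusted p = 0.0524). Mrpl50 was at 72.3 and 74.8 CPM untreated and at 97.8 and 112 at 24 h, a rise of 0.51 (SE 0.08, adjusted p = 0.000645). Mrpl15, the counterpart of bacterial L15, was at 83.1 and 82.5 CPM untreated, 111 and 124 at 14 h, and 115 in both libraries at 24 h. It rose by 0.50 and 0.47 (adjusted p = 0.00152 and 0.00223), and both calls held without any 1 library. Also called at 14 h were Mrpl38 (0.63), Mrps5 (0.48), Mrps10 (0.41) and Mrpl50 (0.37), all of which lost the call when 1 library was left out. The same held at 24 h for Mrpl9 (0.59), Mrps9 (0.41), Mrps22 (0.39), Mrps35 (0.39), Mrps30 (0.30) and Mrpl42 (0.28).

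In the small subunit Mrps6 had the largest change of any member. It was at 85.1 and 97.6 CPM untreated, 48.0 and 59.0 at 4 h, 101 and 128 at 14 h, and 208 and 252 at 24 h. Both 24 h libraries stood above the other 18. The log2 change at 24 h was 1.33 (SE 0.21, adjusted p = 0.000437), and that at 4 h, -0.77, was not called (adjusted p = 0.0567), although both 4 h libraries were below both untreated ones. The 4 h difference passed with the replicate block (adjusted p = 3.9e-07) and with DESeq2 (adjusted p = 0.00672). Mrps6 shares exon sequence on 1 strand with Slc5a3, a sodium and myo-inositol transporter with 200178 counts over the 20 libraries against 90981 for Mrps6. Slc5a3 changed by -1.05 at 4 h (adjusted p = 0.000709) and by 1.24 at 24 h (adjusted p = 2.42e-05), and its part in the counts of Mrps6 was not tested.

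Mrps18b, one of the mammalian copies of bacterial S18, was at 25.8 and 24.0 CPM untreated, 32.8 and 35.5 at 14 h, and 30.8 and 29.7 at 24 h. It rose by 0.46 (SE 0.09, adjusted p = 0.00267) and 0.28 (SE 0.09, adjusted p = 0.0421), and both calls were lost without untreated library 2 (adjusted p = 0.0526 and 0.312). The other copies were not called: Mrps18a was 0.24 higher at 14 h (adjusted p = 0.0796) and Mrps18c differed by -0.15 (adjusted p = 0.459). Mrpl12 ran from 94.5 and 114 CPM untreated to 120 and 175 at 14 h, a change of 0.50 with an SE of 0.29 that was not called (adjusted p = 0.293) and that passed with the replicate block (adjusted p = 0.000468). Mrps12, whose bacterial counterpart sits at the decoding site, was at 10.9 and 14.1 CPM untreated and 14.1 and 19.98 at 14 h, which was not called (adjusted p = 0.348) and passed with the block (adjusted p = 0.00220). Mrpl44 (0.19) and Mrps36 (0.14) were called in neither fit at 14 h.

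**Figure D3:**
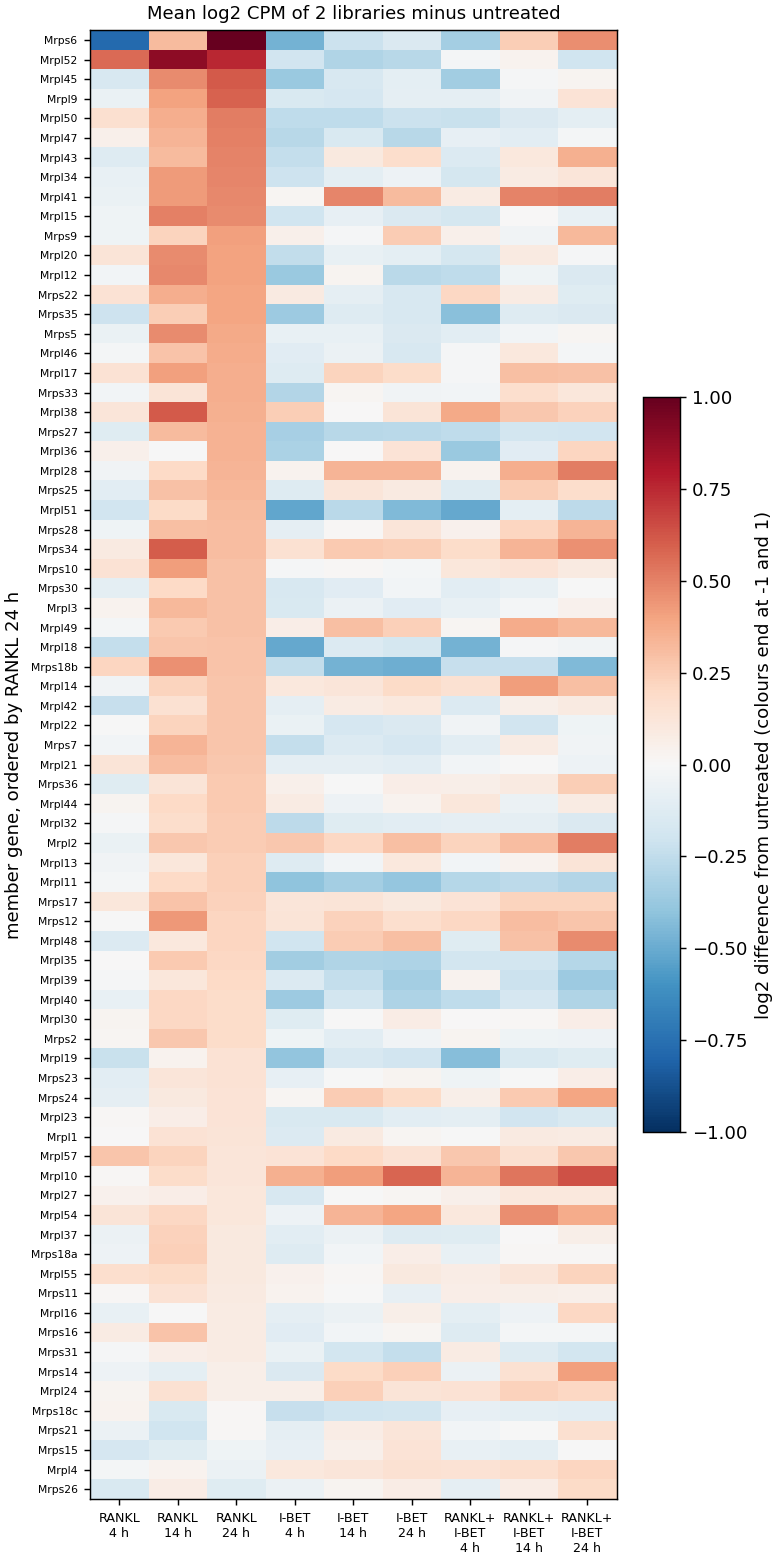
Each row is a member and each column a treated group; colour is the mean log2 CPM of 2 libraries minus that of the untreated group, ordered by RANKL at 24 h. Mrps6 and Mrpl52 head the order, and Mrpl10, lower in the order, is higher in the columns with I-BET than in those with RANKL alone.

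Along the RANKL course itself, 10 members were called higher at 14 h than at 4 h and 0 lower, against 8.02% and 9.71% of all tested genes, and 48 were called higher with the replicate block (19.9% of all genes). Mrps6 (1.10), Mrpl45 (0.63), Mrpl15 (0.54) and Mrps5 (0.54) had the largest of these changes on the log2 scale, and Mrps18a, at 46.6 and 49.3 CPM at 4 h and 53.9 and 63.6 at 14 h, was among them with 0.29 (adjusted p = 0.0361, lost without RANKL 14 h library 2 at 0.344). Between 14 and 24 h only Mrps6 was called, higher by 1.01 (SE 0.21, adjusted p = 0.0181), with 1.13% of all genes called higher and 1.78% lower; the block gave 3 higher (6.44%). That call was lost without RANKL 14 h library 1 (adjusted p = 0.160).

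The second comparison asked what I-BET changed in cells that also received RANKL. Most members called were lower, and Mrpl10 was the exception at each hour. At 14 h 12 members were called lower and 1 higher by edgeR, against 11.2% of all tested genes lower and 10.8% higher. At 24 h 17 were called lower and 1 higher, against 12.9% and 13.9%. At 4 h 3 were called lower and 1 higher, against 6.46% and 4.93%, and all 4 calls were lost when 1 library was left out; the replicate block gave 9 lower and 4 higher (14.4% and 13.7%). The median member differed by -0.20 at 14 h and -0.15 at 24 h, against -0.03 and -0.05 for all tested genes (log2). The fit with the replicate block called 37 lower and 3 higher at 14 h (20.6% and 19.7% of all genes), and 35 and 7 at 24 h (23.5% and 23.1%). Both libraries with both agents were below both RANKL libraries for 33 members at 14 h and 36 at 24 h, against 29.4% and 31.1% of all tested genes, and above for 2 and 5, against 26.3% and 29.4%. These contrasts share the RANKL libraries with the contrasts against untreated cells, so the values are not independent of the rises given above.

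Mrpl52 was at 35.4 and 41.9 CPM with both agents at 4 h, 40.2 and 39.5 at 14 h, and 35.8 and 32.4 at 24 h, below every RANKL library of the same hour. The differences from RANKL alone were -0.59, -0.86 and -0.95 (SE 0.12 each, adjusted p = 0.00625, 0.000170 and 5.3e-05). Mrps18b was at 21.3 CPM in both libraries at 4 h, 22.1 and 20.3 at 14 h, and 18.2 and 18.4 at 24 h. Its differences of -0.45, -0.69 and -0.72 (SE 0.09, adjusted p = 0.00541, 9.2e-05 and 4.2e-05) were called at each hour, and those at 14 and 24 h held without any 1 library, as did those of Mrpl52.

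Mrpl50 was at 63.3 and 63.0 CPM at 4 h, 66.6 and 66.3 at 14 h, and 67.4 and 69.8 at 24 h with both agents, and was called lower than with RANKL alone at each hour (-0.38, -0.51 and -0.61, SE 0.08). Mrpl45 was at 66.4 and 71.3 CPM at 14 h and 66.1 and 75.9 at 24 h, differences of -0.49 and -0.58 (adjusted p = 0.0014 and 0.000272). Mrps6 was at 108 and 146 CPM at 24 h, a difference of -0.85 (SE 0.21, adjusted p = 0.00684) that was lost without library 1 of the combined group (adjusted p = 0.0948). Its exon neighbour Slc5a3 differed by -0.80 (adjusted p = 0.000654) there. Mrps27, a small-subunit protein with pentatricopeptide repeats, was -0.51 at 14 h and -0.54 at 24 h, and both calls were lost when 1 library was left out.

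Other members were called lower as well. At 14 h Mrpl15 (-0.50), Mrps5 (-0.50), Mrpl35 (-0.45), Mrps35 (-0.37), Mrpl39 (-0.33), Mrps2 (-0.31) and Mrps30 (-0.27) were called. At 24 h they were Mrpl51 (-0.57), Mrpl39 (-0.56), Mrpl15 (-0.55), Mrps35 (-0.53), Mrpl47 (-0.52), Mrps22 (-0.52), Mrpl35 (-0.49), Mrpl40 (-0.49), Mrpl32 (-0.39), Mrpl18 (-0.32) and Mrps30 (-0.30). Mrpl15 and Mrpl35 held at both hours, and Mrpl51, Mrpl39 and Mrps35 at 24 h, without any 1 library.

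Mrpl10, the protein that carries the Mrpl12 stalk, went the other way. It was at 44.4 and 46.9 CPM with RANKL alone at 4 h and at 56.0 and 58.7 with both agents. At 14 h the values were 47.7 and 55.1 against 64.5 and 66.8, and at 24 h 47.7 and 50.5 against 68.5 and 72.3. At no hour did the groups overlap. The differences were 0.33, 0.35 and 0.52 (SE 0.10, adjusted p = 0.0415, 0.0171 and 0.00116), and only the last held without any 1 library. The gene that overlaps Mrpl10 on the opposite strand, Gm11574, had 57 counts over all libraries and its divergent neighbour Lrrc46 had 81, against 52459 for Mrpl10.

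**Figure D4:**
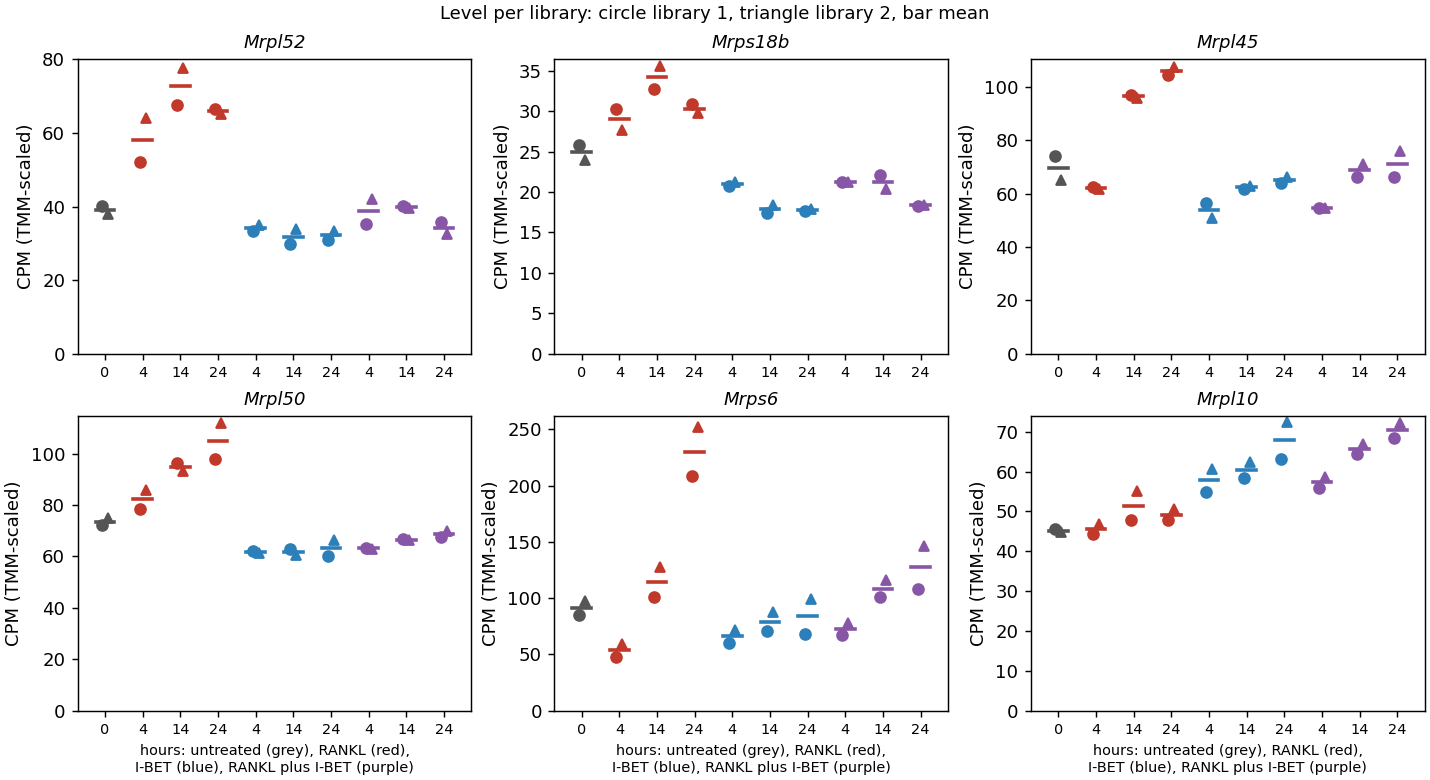
CPM per library of 6 members by hour and treatment, with the mean as a bar and the axis from 0. Mrpl52 lies between 52.1 and 77.7 in the RANKL libraries and between 29.8 and 41.9 in all libraries with I-BET, while Mrpl10 lies above 54 CPM in every library with I-BET and, apart from 1 RANKL library at 55.1, below 51 without it.

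I-BET was also given without RANKL. At 4 h 1 member was called higher and 5 lower, against 4.03% and 6.48% of all tested genes. At 14 h it was 1 and 2, against 5.29% and 8.37%, and at 24 h 1 and 4, against 7.5% and 10.2%. The medians were -0.12, -0.01 and 0.01 on the log2 scale. Tests on the deposited RPKM moved the median of all genes at 4 h by 0.14 to 0.15 (log2) relative to the TMM-scaled counts, and the members' median there became 0.03. Under the replicate block 3 members were called higher and 20 lower at 4 h, 9 and 10 at 14 h, and 10 and 12 at 24 h, against 12.8% and 16.2%, 14.4% and 15.4%, and 18.1% and 18.1% of all genes. These 3 contrasts share the untreated libraries with one another and with the RANKL contrasts.

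Mrpl10 was the member called higher, at 54.9 and 60.6 CPM at 4 h, 58.3 and 62.5 at 14 h, and 63.1 and 72.5 at 24 h, against 45.5 and 44.9 untreated. It rose by 0.35, 0.42 and 0.59 (SE 0.10, adjusted p = 0.0338, 0.0102 and 0.000791), and the calls at 4 and 14 h were lost without I-BET library 2 of that hour (adjusted p = 0.273 and 0.102). Mrps18b was at 17.4 and 18.4 CPM at 14 h and 17.6 and 17.9 at 24 h, differences of -0.47 and -0.49 (SE 0.09, adjusted p = 0.00282 and 0.00179). Both calls held without any 1 library. Neither held without the count filter, where 0 members were called lower at these hours. Mrpl35, the counterpart of bacterial L35, was at 42.1 and 37.9 CPM untreated and at 33.9 and 29.2, 33.0 and 31.8, and 32.3 and 32.2 at 4, 14 and 24 h. It was called lower each time (-0.34, -0.30 and -0.31, SE 0.09), and each call was lost when 1 library was left out.

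Mrpl51 (-0.52) and Mrpl18 (-0.51) had the largest falls at 4 h. Mrpl51 was at 80.0 and 80.8 CPM untreated, 57.4 and 54.6 at 4 h and 55.4 and 63.1 at 24 h. Mrpl18 was at 75.8 and 81.7 CPM untreated and at 57.6 and 53.0 at 4 h. Neither group pair overlapped, and both 4 h calls were lost without I-BET 4 h library 2 (adjusted p = 0.0855 and 0.0881). Mrpl45 (-0.37) and Mrps35 (-0.37) were also called lower at 4 h, and Mrpl51 (-0.44) and Mrpl39 (-0.34) at 24 h, and each of these 4 calls was lost when 1 library was left out.

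**Figure D5:**
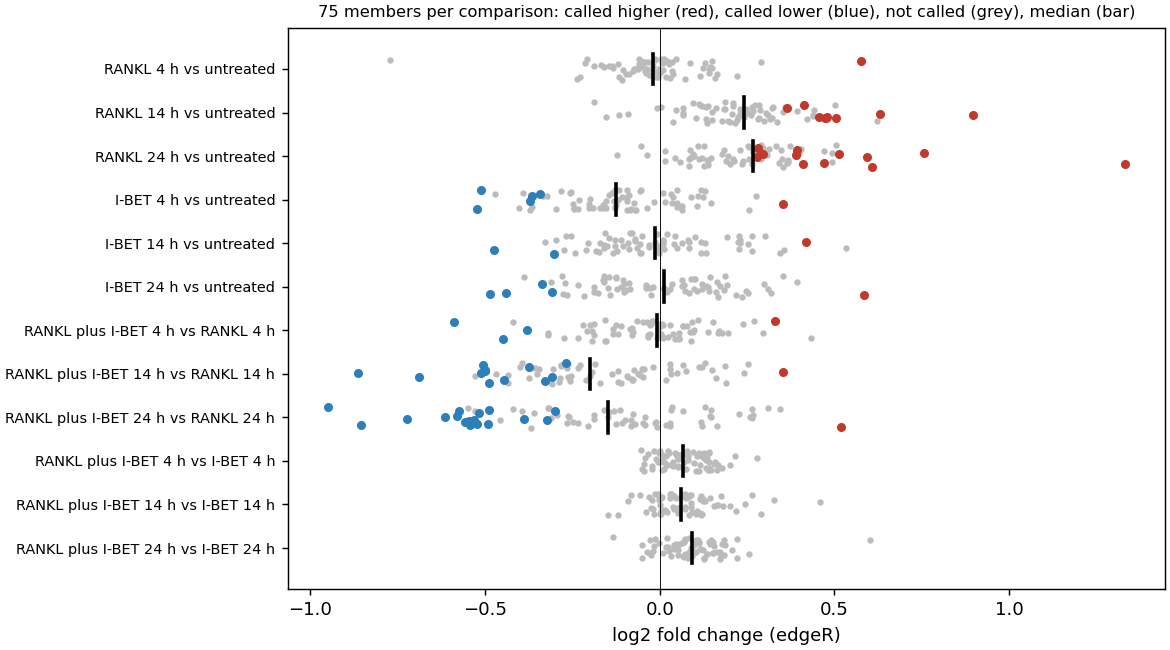
Log2 fold changes of the 75 tested members in 12 comparisons, 1 point per member with the vertical position inside a row carrying no meaning; the black bar is the median. Called members lie to the right for RANKL at 14 and 24 h and mostly to the left where I-BET was added to RANKL. No member is coloured in the bottom 3 rows, where 0.517%, 0.904% and 0.262% of all tested genes were called.

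With I-BET present, RANKL left no member called, and few of all tested genes. In cells with both agents against I-BET alone edgeR called 0 of 75 at 4, 14 and 24 h, and DESeq2 also called 0. Of all tested genes edgeR called 0.517%, 0.904% and 0.262% at adjusted p under 0.05, so 0 members was near the background. At an unadjusted p under 0.05 there were 0, 3 and 1 members in edgeR. The share of all genes at that threshold is not given. The medians were 0.07, 0.06 and 0.09. The block gave 2 higher calls at 14 h and 2 at 24 h (3.57% and 1.12% of all genes), and those at 24 h were Mrps6 and Mrpl9. Mrps6 was at 68.3 and 99.4 CPM with I-BET alone at 24 h and at 108 and 146 with both, a change of 0.60 (SE 0.21, adjusted p = 0.542, with the block 9.0e-05).

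An interaction term set the I-BET difference in RANKL-treated cells against that between I-BET alone and untreated cells. The untreated libraries are from 0 h, so in this term RANKL and the hours in culture cannot be told apart. At 24 h 2 members were called, both with a more negative I-BET difference in RANKL-treated cells, against 5.25% of all tested genes called in either direction. They were Mrpl52 (-0.67, SE 0.17, adjusted p = 0.0351) and Mrpl45 (-0.48, SE 0.13, adjusted p = 0.0422). Both were lost without untreated library 2 (adjusted p = 0.170 and 0.271). At 14 h 0 were called by edgeR and 2 by DESeq2. Of all genes edgeR called 2.78% at adjusted p under 0.05. At an unadjusted p under 0.05 there were 4 members, and the share of all genes at that threshold is not given. At 4 h 0 were called by either. Of all genes edgeR called 0% at adjusted p under 0.05, and 2 members had an unadjusted p under 0.05. Under the replicate block 1 was called higher at 4 h (0.835% of all genes), 7 lower at 14 h (4.41%) and 11 lower at 24 h (7.97%).

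Over the 9 contrasts of RANKL or I-BET with their direct controls, 25 members were called at least once and 50 never, against 44.3% of all tested genes called at least once. At 1 hour or more, 15 members were called higher with RANKL (12.3% of all genes) and 19 lower when I-BET was added to RANKL (17.2%). Mrpl10 was called higher in all 6 I-BET contrasts, Mrps18b and Mrpl35 lower in 5 of 6. With RLE in place of TMM factors the Mrpl10 call was lost where I-BET was added to RANKL at 4 h, and without the count filter also at 14 h and with I-BET alone at 4 h. Of 48 tested large-subunit members 7 were called higher with RANKL at 24 h and 12 lower when I-BET was added, and of 26 small-subunit members 5 and 5, where 8.04% and 12.9% of all tested genes were called. Of 47 bacterial-type members 5 and 7 were called, and of 27 tested mitochondria-specific ones 7 and 10. No test of a difference between these classes was made.

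Other genes of mitochondrial protein synthesis were described from lists. Beside these counts, 8.31% and 8.04% of all tested genes were called higher with RANKL at 14 and 24 h, and 10.1% and 10.9% lower. With I-BET added, 11.2% and 12.9% were called lower and 10.8% and 13.9% higher. Ptcd3, a small-subunit protein without an Mrp symbol, was the 1 of 6 such genes called: it rose by 0.53 and 0.48 with RANKL at 14 and 24 h and differed by -0.33 and -0.37 with I-BET added. Of 22 assembly factors 3 rose at each of these hours, Gtpbp10 (0.63 and 0.62) and Fastkd2 (0.42 and 0.37) among them, and 0 fell. With I-BET added 3 fell and 1 rose at each hour. At 24 h these were Rpusd4, a pseudouridine synthase of the large ribosomal RNA (-1.04), Gtpbp10 (-0.55), Fastkd2 (-0.52) and, upwards, Nsun4, an RNA methyltransferase (0.88).

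The next counts stand beside 8.31% and 8.04% of all tested genes called higher with RANKL at 14 and 24 h. With I-BET added, 11.2% and 12.9% of all tested genes were called lower and 10.8% and 13.9% higher. Of 15 translation factors 5 rose with RANKL at 14 h and 4 at 24 h and 0 fell, with Gfm1, an elongation factor, at 0.41 and 0.48. With I-BET added 2 and 4 fell and 0 rose, led by the release factor gene Mtrf1 (-0.63 and -1.01). Of 20 tRNA-charging genes 1 and 2 rose with RANKL, and 1 and 2 rose with I-BET added, Sars2 by 0.44 at 24 h. Of 9 genes that copy and transcribe mitochondrial DNA 3 and 4 rose with RANKL and 3 and 3 fell with I-BET added, with the helicase gene Peo1 at 0.71, 0.72, -0.62 and -0.64 and Ssbp1 at 0.35, 0.31, -0.58 and -0.62.

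Of 8 tested regulators 5 rose with RANKL at 14 h and 3 at 24 h, against 8.31% and 8.04% of all tested genes. With I-BET added 5 and 6 of the 8 fell, against 11.2% and 12.9%. Myc, its partner gene Max and the coactivator gene Ppargc1b were called in all of these. Ppargc1b changed by 0.79 and 1.02 with RANKL and by -0.52 and -0.84 with I-BET added. Nrf1 rose by 0.35 at 14 h and differed by -0.41 and -0.31 with I-BET added, and Gabpa, the DNA-binding part of GABP, differed by -0.43 at 24 h. Their part in the members' changes was not tested.

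The 13 mitochondrially encoded messenger RNAs, which this ribosome translates, gave 0 calls by edgeR, by DESeq2 and by limma on RPKM in these 4 contrasts, with 1, 0, 0 and 1 at an unadjusted p under 0.05. The 75 cytosolic ribosomal protein genes are the family most like the members. With RANKL at 14 and 24 h they gave 0 and 8 higher calls, against 8.31% and 8.04% of all tested genes. With I-BET added they gave 3 and 6 lower calls, against 11.2% and 12.9%. Their medians were 0.13, 0.28, -0.27 and -0.20 (log2), beside the members' 0.24, 0.27, -0.20 and -0.15. Under the block the cytosolic genes had 10 and 50 higher calls with RANKL, against 19.1% and 18.7% of all genes. With I-BET added they had 50 and 32 lower calls, against 20.6% and 23.5%. At an unadjusted p under 0.05 there were 2 cytosolic genes at 14 h. No test of the difference between the families was made.

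Exons of 31 members overlap another annotated gene (GENCODE M21), 7 on the same strand and 27 on the opposite one, and the strand setting of the counting is not given in the sources used here. Among the 45 tested members without overlap, 8 were called higher with RANKL at 24 h and 0 lower, against 8.04% and 10.9% of all tested genes. With I-BET added at 24 h, 10 of these members were called lower and 0 higher, against 12.9% and 13.9%. Mrpl52 and Mrpl45 have no overlap. Mrps18b overlaps Gm16279 on the opposite strand, which had 1583 counts over all libraries against 21216, and differed by -0.52 at 24 h (adjusted p = 0.115) where I-BET was added to RANKL.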

How the data were processed

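Per gene and library, the authors deposited raw counts in one table and RPKM in another, for 20 libraries. Libraries were made from poly(A) RNA and read as pairs of 100 bases, per the labels' protocols. FastQC, STAR 2.5.3a, DESeq2 1.16.1 and the build GRCm38 (mm10) are named in the submitters' processing notes. How reads were assigned to genes, and whether by strand, is not given in the sources used here. Dividing the deposited counts by exon length and library size returned the deposited RPKM, which are therefore the same data. Members, gene lists, motifs and the rule for named genes were chosen with earlier results of these data known.

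Members were matched by symbol in the RPKM table and by gene ID in the counts. Counts were tested with edgeR 4.0.16 (R 4.3.3): TMM factors, filterByExpr by group, robust quasi-likelihood fit of 10 group means on 20 libraries with 10 residual degrees of freedom, and Benjamini-Hochberg adjustment over 16042 genes, called at adjusted p under 0.05. Of the genes tested 75 are members. No library was left out. Standard errors are those of the fitted log2 fold changes. CPM use TMM-scaled library sizes with log2 values at a prior count of 2. Named are 8 set members (Mrpl12, Mrps12, Mrps5, Mrpl44, Mrps18a, Mrps18b, Mrps18c, Mrps36), the 4 largest called rises and falls whose libraries do not overlap, calls against the majority, and the 3 highest and 3 lowest by RPKM. Changes of Mrpl12, Mrps12, Mrpl44, Mrps18c and Mrps36 are printed only for RANKL against untreated cells. The main fit called these members in none of the 9 contrasts with direct controls. Other names were added after their values were seen. Alternatives were RLE factors, no filter, DESeq2 1.42.0, only the libraries compared, limma 3.58.1 on log2(RPKM + 1) or log2(RPKM + 0.1), the replicate number as a block, and leaving out each library. The labels number the replicates but name no shared culture; the block rests on the correlation of same-numbered libraries (r of 0.221 to 0.596 over 45 group pairs), and the biological coefficient of variation was 0.162 without and 0.0751 with it. The fit was also run on simulated counts without any correlation between same-numbered libraries. That run therefore did not test the fit under the correlation seen here. Totals of 19051780 to 62313792 counts set the precision.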

Additional observations from a re-analysis of the deposited data

Results flagged for a closer look

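At 24 h the interaction term of the edgeR quasi-likelihood fit with Benjamini-Hochberg adjustment was called for 2 of 75 members. Of all tested genes 5.25% were called. The term uses untreated cells of 0 h, so RANKL and the hours in culture cannot be told apart in it. For Mrpl52 the I-BET difference was -0.95 in RANKL-treated cells and -0.28 for I-BET alone against untreated cells. Its interaction was -0.67 (SE 0.17, adjusted p = 0.0351). For Mrpl45 the differences were -0.58 and -0.10, and the interaction was -0.48 (SE 0.13, adjusted p = 0.0422). With the replicate block the adjusted p were 0.00124 and 0.00332, and without untreated library 2 they were 0.170 and 0.271.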

How the results depend on the processing

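For RANKL and for I-BET added to RANKL, counts of called members at 14 and 24 h kept their main direction under RLE factors, DESeq2 and limma. Of 208 alternative counts 111 stayed within 1.5 times the main count. Shares of all genes called are given above for the main fit and for most counts with the replicate block. They are not given for the other settings, so a larger or smaller count below cannot be read as particular to the members. The limits below are counts of members called in either direction unless stated, and where a cause could be asked for, the cause was not tested, except that fits to only the libraries compared have fewer samples. A lone library left in a group was assumed to vary like the other groups. Depth sets the counting error, and nothing can be said of Mrpl53, which had no counts.

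With the replicate block, RANKL against untreated gave 5, 43 and 47 at 4, 14 and 24 h, I-BET added to RANKL 13, 40 and 42, I-BET against untreated 23, 19 and 22, both agents against I-BET 2 and 2 at 14 and 24 h, the interaction 1, 7 and 11, and RANKL over time 48 (14 h against 4 h) and 3 (24 h against 14 h). It kept every main call. The block without untreated library 2, chosen after seeing the data, gave 2, 19 and 23 for RANKL, 14, 8 and 11 for I-BET, and 1 and 1 for the interaction at 4 and 14 h.

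With only the libraries compared, RANKL gave 0, 1 and 6, I-BET added to RANKL 0 and 3 at 4 and 14 h, I-BET alone 0, 0 and 1, the interaction at 24 h 0, and RANKL over time 2 and 0. Without the count filter the counts were 2 for RANKL at 4 h, 1 for I-BET added at 4 h, 3, 1 and 1 for I-BET alone, 1 for both agents against I-BET at 24 h, and 1 and 1 for the interaction at 4 and 24 h. RLE factors gave 2 for RANKL at 4 h and 1 for the interaction at 24 h. DESeq2 gave 3 for RANKL at 4 h, 6 for I-BET at 14 h, and 2 and 4 for the interaction at 14 and 24 h. Limma on RPKM with a pseudocount of 1 gave 2 and 23 for RANKL at 4 and 24 h, 3 for I-BET at 4 h, and 1 and 5 for the interaction at 14 and 24 h; with 0.1 it gave 22 at 24 h, 3 for I-BET at 4 h, and 1 and 4. It split the I-BET calls as 1 higher and 2 lower at 4 h, 2 and 1 at 14 h and 4 and 2 at 24 h, and RLE factors gave 0 higher and 4 lower where I-BET was added at 4 h.

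Leaving out 1 library, the lowest and highest counts were 0 and 1, 3 and 8, and 5 and 9 for RANKL at 4, 14 and 24 h. They were 1 and 3, 6 and 11, and 10 and 15 for I-BET added, 0 and 4, 1 and 2, and 2 and 3 for I-BET alone, 0 and 1 for the interaction at 24 h, 4 and 9 for RANKL at 14 h against 4 h, and 0 and 1 for 24 h against 14 h. The lowest for RANKL at 14 h came without untreated library 2, and for 24 h without untreated library 1.

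The members' median changed sign in these cases. For RANKL at 4 h it became 0.046 and 0.047 with limma (pseudocounts 1 and 0.1). For I-BET added at 4 h it became 0.0087 and 0.0088, for I-BET at 4 h 0.028 and 0.029, and for I-BET at 14 h 0.061 and 0.063. For I-BET at 24 h it became -0.0027 with RLE factors, -0.0061 with DESeq2 and -0.016 with the block without untreated library 2. For RANKL at 24 h against 14 h it became -0.012 without the filter. Leaving out 1 library, these medians ran from -0.149 to 0.0900 (RANKL 4 h), -0.154 to 0.102 (I-BET added, 4 h), -0.184 to 0.114 (I-BET 14 h), -0.135 to 0.114 (I-BET 24 h) and -0.101 to 0.131 (RANKL 24 h against 14 h). For both agents against I-BET they ran from -0.0625 to 0.172, -0.0727 to 0.227 and -0.0177 to 0.239 at 4, 14 and 24 h, and for the interaction at 4 h from -0.0591 to 0.211. For RANKL they stayed between 0.111 and 0.344 at 14 h and 0.164 and 0.328 at 24 h.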

Other observations

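Start sites of 19 members lie head to head, within 1000 bases, with that of another coding gene, and 18 of these partners were tested. With RANKL at 24 h 2 partners were called higher and 0 lower, against 8.04% and 10.9% of all tested genes. With I-BET added at 24 h 3 partners were higher and 4 lower, against 13.9% and 12.9%. Ppp1r10, the partner of Mrps18b and a regulatory subunit of a protein phosphatase, differed by 0.37 (SE 0.09, adjusted p = 0.00636, edgeR) where Mrps18b differed by -0.72. Zfp189, a zinc-finger gene and the partner of Mrpl50, differed by -0.995 (SE 0.21, adjusted p = 0.00257) where Mrpl50 differed by -0.61.

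Member promoters with and without motif letters were set side by side for RANKL with I-BET against RANKL at 24 h, where 13.9% of all tested genes were called higher and 12.9% lower. The 7 members with NRF1 letters had 1 higher and 3 lower calls and a median of -0.39 (log2), and the 59 without had 0 and 12 and a median of -0.15. The 23 with ETS letters had 0 and 6 and a median of -0.15, and the 43 without had 1 and 9 and a median of -0.19. The 5 with an E-box had 0 and 0 and a median of -0.13, and the 61 without had 1 and 15 and a median of -0.19. Under the replicate block these were 1 higher and 1 lower with an E-box and 5 and 31 without. Of all genes 23.1% were called higher and 23.5% lower under the block. The 12 with YY1 letters had 0 and 3 and a median of -0.11, and the 54 without had 1 and 12 and a median of -0.20. These are descriptions and no difference between them was tested.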
